A study of Sus scrofa with 18 samples.

Results

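Perirenal visceral fat (VAF) of the Bama pig was compared between 1 month and 3 months of age, in 6 of the 18 RNA-seq libraries of the series, 3 at each age. Libraries were grouped by the name that heads their column of the count table and that the submitters also gave as the sample description. They are called VAF1-1, VAF1-2 and VAF1-3 at 1 month and VAF3-1, VAF3-2 and VAF3-3 at 3 months here. The Bama pig is a Chinese miniature breed, and the animals were males, wild type as far as the labels tell, sons of 1 sire raised in the same housing on the same diet. The fat lay beside the kidney and was taken after the pigs had been fasted for 24 h and euthanized. The pigs at the 2 ages were different animals, 3 at each age, and subcutaneous back fat (SAF) was taken from the same pigs. Total counts per library ran from 17035783 to 22857354.

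The labels disagree on a library. The column VAF3-3 belongs to a sample whose title and age field say 6 months, and a sample titled and aged as 3 months is described by the first 6-month column name, VAF6-1. The paper left a library it calls VAF6-3 out of its screening, because it deviated from the other VAF6 samples. That name matches the title of the VAF3-3 sample (VAF6 rep3) and also the column name of another sample, so which library was meant is not settled. The values below follow the column names, and the other reading, with VAF6-1 in place of VAF3-3, is given beside most groups of genes, with CPM scaled anew over the 6 libraries it holds. VAF3-3 also stood apart from the rest of its group. Over the 15275 genes that passed the filter on low counts, Pearson's r of log2 values was 0.958 between VAF3-1 and VAF3-2, but 0.895 and 0.896 between VAF3-3 and each of them, whereas VAF3-3 had an r of 0.945 to 0.959 with the 1-month libraries. The results are therefore split into differences seen in all 3 libraries at 3 months and those seen only in VAF3-1 and VAF3-2 or only in VAF3-3.

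White adipose tissue stores triglyceride in the droplets of adipocytes, makes fatty acids from glucose when fed, and releases fatty acids during a fast under the control of insulin, catecholamines and the local circadian clock. The perirenal depot surrounds the kidney and the origin of the ureter, whose wall carries a lining of urothelium and a coat of smooth muscle. A piece of this depot can therefore hold RNA of the urinary tract as well as of adipocytes, vessels, nerves and stroma. In bulk tissue, fewer cells of a type and less RNA per cell cannot be told apart.

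With edgeR's quasi-likelihood test, 0 of 15275 genes (0.0%) were called between 1 and 3 months at an adjusted p below 0.05 and a change of more than 1.5-fold. The log2 fold change (log2FC) is 3 months minus 1 month throughout. At an unadjusted p below 0.05 there were 1385 genes (9.07%). DESeq2, which models the same counts with another test, called 450 of 17031 genes higher at 3 months (2.64%) and 172 lower (1.01%). Leaving out VAF3-3 turned the edgeR result from 0 to 1013 calls among 15719 genes, 749 higher (4.76%) and 264 lower (1.68%). With VAF6-1 in place of VAF3-3, edgeR called 0 of 15049 genes, with 2041 at an unadjusted p below 0.05. No gene below is a call of the edgeR test on all 6 libraries, so the values of each library are given and the tool behind each call is named.

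A gene was counted as outside the 1-month range when a 3-month library lay more than 1.5-fold above the highest or below the lowest of the 3 libraries at 1 month, on the scale of log2(CPM + 0.5). CPM is the count of a gene per 1000000 counts of its library, after TMM scaling. Among the 15275 genes, all 3 libraries lay above for 102 genes (0.668%) and below for 127 genes (0.831%). VAF3-1 and VAF3-2 without VAF3-3 lay above for 740 genes (4.84%) and below for 419 (2.74%). VAF3-3 alone lay above for 603 genes (3.95%) and below for 494 (3.23%). The pair VAF3-1 and VAF3-2 was thus set apart together more often than the pairs that held VAF3-3, which were above in 47 and 48 genes and below in 122 and 43. With VAF6-1 in place of VAF3-3, 107 genes were above and 141 below the range in all 3 libraries, and 43 of the 102 and 64 of the 127 genes were among them. These are counts of a pattern, without a test.

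**Figure D1:**
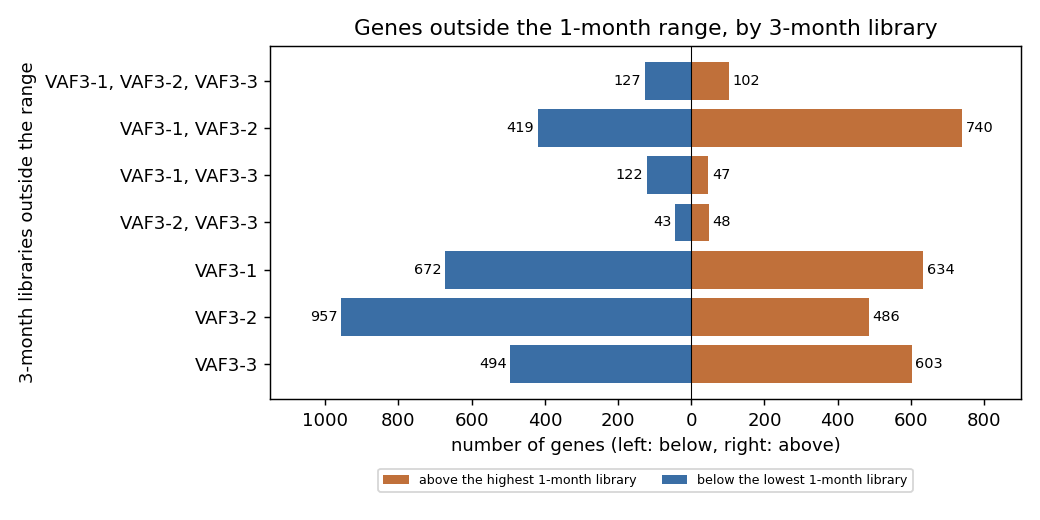
Number of genes (x axis) whose level lay above the highest (right) or below the lowest (left) of the 3 libraries at 1 month by more than 1.5-fold, by which 3-month libraries did so (y axis). The bar for VAF3-1 and VAF3-2 together reaches 740 genes above, against 102 for all 3 libraries.

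Genes higher in all 3 libraries at 3 months were led by LCN2, lipocalin 2, a secreted carrier of iron siderophores that adipocytes and epithelia release. The gene lies on chromosome 1 (268609975 to 268614651, Sscrofa11.1). Its level was 38.1, 29.4 and 27.0 CPM at 1 month and 149, 202 and 166 CPM at 3 months, or 31.5 ± 5.81 against 172 ± 27.2 CPM (SD, n = 3 each). The groups did not overlap, and VAF3-3 lay between the other 3-month libraries. Under the other reading the groups overlapped, since LCN2 was at 26.8 CPM in VAF6-1, inside the 1-month range of 26.4 to 37.1 CPM. The log2FC was 2.45 ± 0.23 (SE), with an adjusted p of 0.134 by edgeR and 5.48e-15 by DESeq2. CYP1A1, a xenobiotic-metabolizing cytochrome P450 that is the standard target of the aryl hydrocarbon receptor, was at 5.44, 1.15 and 2.56 CPM at 1 month and at 29.2, 52.6 and 44.0 CPM at 3 months, a log2FC of 3.80 ± 0.57. Here too every 3-month library exceeded every 1-month library, and the adjusted p was 0.211 by edgeR and 2.22e-09 by DESeq2. VAF6-1 had 55.01 CPM of CYP1A1, so this order did not depend on which library is taken.

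The 15 genes of this kind with the smallest p were LCN2, ATP6V0A4, NR1D2, TEF, CST6, CYP1A1, CDH16, TMEM213, AMN, NR1D1, CLCA2, GCSAML, BHMT, CLDN3 and HEPH. Adjusted p-values by edgeR ran from 0.134 to 0.275 over them. With VAF6-1 in place of VAF3-3, 7 of the 15 were above the range in all 3 libraries (NR1D2, TEF, CST6, CYP1A1, NR1D1, GCSAML and CLDN3) and 8 were not, LCN2, ATP6V0A4, CDH16, TMEM213, AMN, CLCA2, BHMT and HEPH. Their levels at 1 month were often close to none. BHMT, which remethylates homocysteine with betaine, had 0 counts in all 3 libraries at 1 month and 8.53, 1.36 and 4.52 CPM at 3 months, at least 97-fold higher when the 1-month group is set at a floor of 3 counts over its 3 libraries. ATP6V0A4, a subunit of the proton pump of acid-secreting cells, was at 0.125, 0.277 and 0.173 CPM at 1 month and at 9.49, 4.42 and 5.46 CPM at 3 months. TMEM213, a small membrane protein gene, had 0, 0.0461 and 0.13 CPM at 1 month and 8.81, 1.47 and 5.86 CPM at 3 months. In VAF6-1, BHMT had 0 CPM, ATP6V0A4 0.0605 CPM and TMEM213 0.182 CPM, so for these 3 genes the level above the range in all 3 libraries is lost under the other reading. The ATP6V0A4 and TMEM213 genes overlap on chromosome 18 of Sscrofa11.1, and the sources used here do not say that counting used the strand, so reads of one may be counted for the other. TMEM213 was among the genes that edgeR called in SAF, where its log2FC was 7.05 ± 0.78 (adjusted p = 0.0295), though edgeR did not call it in VAF (adjusted p = 0.273).

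Several of these genes are known from epithelia. CDH16, a cadherin of kidney tubules, was at 0, 0 and 0.0433 CPM at 1 month, the last value being 1 count, and at 2.43, 0.928 and 3.26 CPM at 3 months. AMN, the partner of cubilin in endocytosis, had 0.791, 2.18 and 0.984 CPM at 3 months. CLDN3, a tight junction claudin, was at 6.50, 3.88 and 0.984 CPM at 3 months, and HEPH, a copper-dependent ferroxidase, at 5.76, 3.60 and 0.760 CPM, with VAF3-3 the lowest in both. VAF6-1 had 0 CPM of CDH16 and AMN, 0.121 CPM of HEPH and 1.21 CPM of CLDN3, of which CLDN3 was above the 1-month range. These genes moved with the epithelial marker lists described below, whose summed levels were higher in VAF3-1 and VAF3-2 (urothelium) or in VAF3-3 (kidney tubule), and the part of those cells in the result was not tested.

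The circadian clock genes were the list with the most members outside the 1-month range in all 3 libraries, 3 above it and 1 below, beside 0.668% and 0.831% of all genes. The clock is a feedback loop in which BMAL1 (ARNTL) and CLOCK activate genes with E-box sequences, among them PER, NR1D1 and NR1D2 and the PAR bZIP factors DBP, TEF and HLF, and in which the NR1D receptors repress ARNTL. NR1D1 was at 4.19, 6.74 and 4.64 CPM at 1 month and at 25.4, 27.4 and 13.8 CPM at 3 months (log2FC 2.09 ± 0.36). NR1D2 was at 17.3, 22.8 and 17.4 CPM and then at 69.8, 53.2 and 72.8 CPM (1.77 ± 0.22). Both repressor genes were thus higher in each 3-month library than in each 1-month library. NR1D1 (chromosome 12, 22263549 to 22274131, Sscrofa11.1) overlaps THRA, a thyroid hormone receptor gene, which was at 114, 127 and 99.0 CPM at 1 month and at 119, 119 and 107 CPM at 3 months. TEF was at 24.5, 29.2 and 16.7 CPM at 1 month and at 78.9, 101.1 and 94.3 CPM at 3 months (1.96 ± 0.25). ARNTL, the activator, had the opposite order, with 13.9, 11.8 and 13.6 CPM at 1 month and 5.76, 2.89 and 4.87 CPM at 3 months (-1.54 ± 0.34).

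Of the 16 clock genes listed, all of which were tested, DESeq2 called 6 higher at 3 months (NR1D1, NR1D2, TEF, DBP, PER1 and HLF) and 1 lower (ARNTL), against 2.64% and 1.01% of all genes. The median log2FC of the list was 0.67, beside 0.02 over all genes tested. PER1, a repressor of the loop, was at 87.5, 85.1 and 59.5 CPM at 1 month and at 117, 164 and 196 CPM at 3 months, and DBP at 29.4, 34.4 and 20.6 CPM and then 63.1, 82.0 and 49.4 CPM. The remaining members were CRY1, CRY2, PER2, PER3, NPAS2, CLOCK, CIART, BHLHE40 and BHLHE41, and DESeq2 called none of them. CLOCK itself, the partner of ARNTL, was scattered, at 4.80, 1.04 and 20.8 CPM at 3 months. Without VAF3-3, edgeR called 4 of the 16 higher and 0 lower, beside 4.76% and 1.68% of all genes. With VAF6-1 in place of VAF3-3 the log2FC was 2.24 for NR1D1, 1.64 for NR1D2, 1.93 for TEF and -1.36 for ARNTL, so the direction was kept in each, and all 4 were outside the range in all 3 libraries. In SAF of the same pigs the log2FC was 1.57 for NR1D1 (edgeR adjusted p = 0.0618), 1.32 for NR1D2 (0.105), 1.79 for TEF (0.0511) and -1.67 for ARNTL (0.0835), none of them past the threshold. All 3 libraries of an age came from pigs of 1 age group, and the time of day of sampling is not given in the sources used here, so age and sampling time cannot be told apart for these genes.

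The E-box CACGTG was searched, on both strands, in the 300 bases around the annotated gene start (250 before it and 50 from it) of 19531 protein-coding genes in the RefSeq annotation of Sscrofa11.1. It was present in 1548 of those windows (7.93%) and in 3 of the 16 clock genes, PER1, PER3 and TEF. The PER1 window is shown because the gene was among the calls of DESeq2, with the E-box in capitals, at position -93 from the gene start. PER1 lies on chromosome 12 (53361863 to 53376723, minus strand) and its window is chr12:53376674-53376973.
PER1: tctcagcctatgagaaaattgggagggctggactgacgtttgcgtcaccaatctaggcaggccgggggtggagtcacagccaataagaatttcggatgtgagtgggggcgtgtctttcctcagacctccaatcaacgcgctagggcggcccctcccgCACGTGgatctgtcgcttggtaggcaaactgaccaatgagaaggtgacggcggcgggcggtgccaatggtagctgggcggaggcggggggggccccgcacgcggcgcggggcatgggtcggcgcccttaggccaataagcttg
The D-box TTATGNAA was found in 548 windows (2.81%) and in 1 clock gene, PER3. A match describes letters in these windows and is not a measured binding site, and NR1D1, NR1D2 and ARNTL had no CACGTG in theirs.

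Genes lower in all 3 libraries at 3 months were led by LRRN4CL, LIMCH1, PLIN5, VTCN1, SDR16C5, GFRA3, GALNT16, AIFM2, GEM, AGPAT3, ANXA2, FAM71F2, NGFR, FHL1 and HILPDA, with adjusted p-values from 0.134 to 0.275 by edgeR. LRRN4CL, a membrane protein gene, was at 349, 347 and 456 CPM at 1 month and at 85.2, 110 and 90.2 CPM at 3 months (log2FC -2.01 ± 0.23). LIMCH1, an actomyosin regulator, was at 130, 95.7 and 126 CPM and then at 27.1, 21.9 and 33.7 CPM (-2.09 ± 0.24). ANXA2, an abundant calcium-dependent membrane-binding protein, was at 2904, 3141 and 3577 CPM at 1 month and at 1030, 1188 and 1054 CPM at 3 months (-1.56 ± 0.26). In these 3 genes the libraries of an age lay close together, VAF3-3 with the others of its age. All 3 were called by DESeq2 and by limma voom with sample weights. With VAF6-1 in place of VAF3-3, 10 of the 15 were below the range in all 3 libraries, these 3 among them, and PLIN5, VTCN1, AIFM2, AGPAT3 and FHL1 were not. VTCN1 was at 3.63 CPM in VAF6-1, above its 1-month range of 2.19 to 3.30 CPM.

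**Figure D2:**
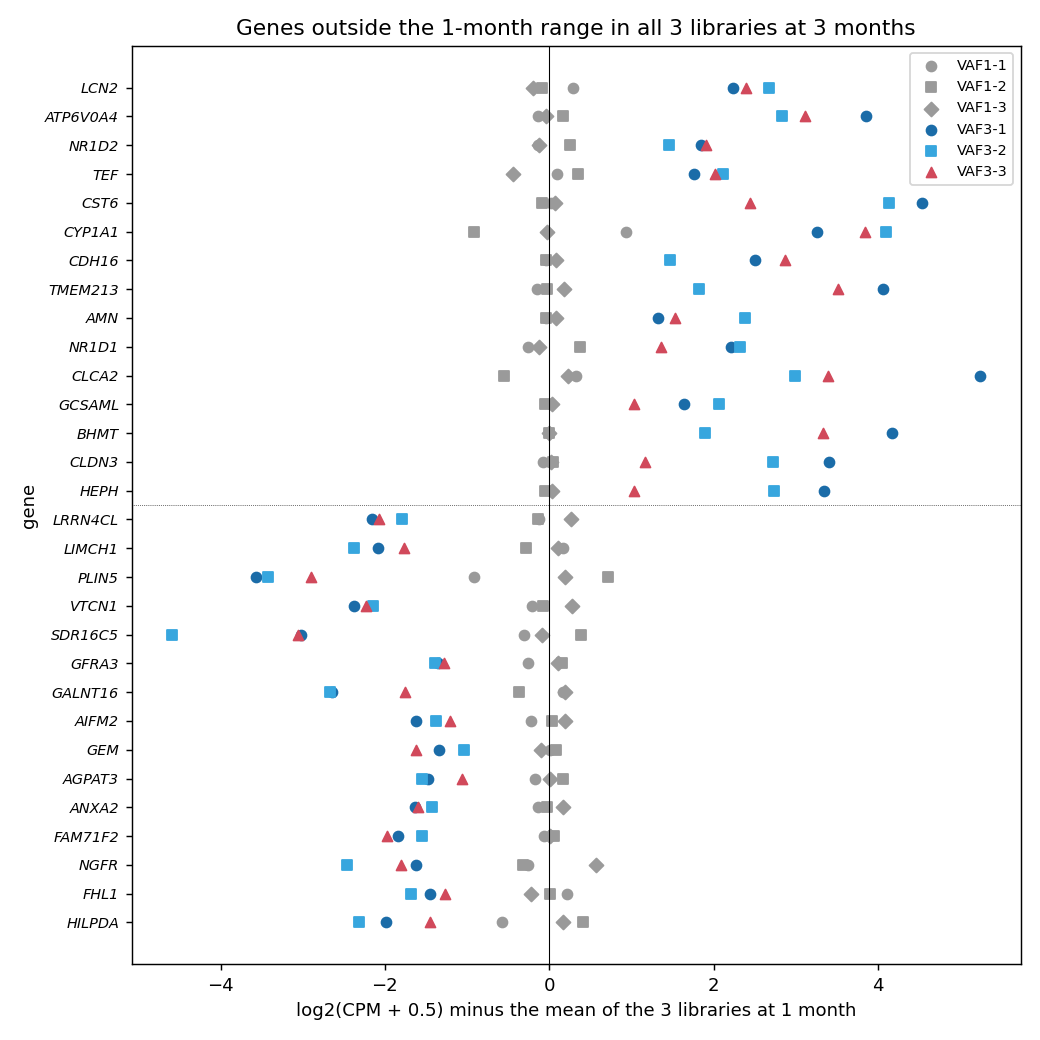
Level of the 15 genes with the smallest p among those above, and the 15 among those below, the 1-month range in all 3 libraries at 3 months (y axis), as log2(CPM + 0.5) minus the mean of the 3 libraries at 1 month (x axis). Each point is 1 library, and the coloured 3-month points lie clear of the grey 1-month points on the same side for each gene, which is how the genes were chosen.

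Genes of lipid droplets and of lipid use were among those lower in all 3 libraries. They held 2 of the 15 genes listed for lipolysis and droplets, 1 of 19 for fatty acid oxidation and 1 of 12 for triglyceride synthesis, beside 0.831% of all genes. PLIN5, a perilipin that ties droplets to mitochondria, was at 22.1, 70.0 and 48.5 CPM at 1 month and at 3.11, 3.49 and 5.23 CPM at 3 months, or 46.9 ± 24.0 against 3.95 ± 1.13 CPM (SD, n = 3 each). The log2FC was -3.57 ± 0.47, with an adjusted p of 0.134 by edgeR and 8.60e-11 by DESeq2. PCK1, the enzyme of gluconeogenesis and, in fat, of glycerol supply, was at 215, 1146 and 749.9 CPM at 1 month and at 86.8, 23.1 and 66.9 CPM at 3 months (-3.58 ± 0.73). UCP3, a mitochondrial carrier induced by fatty acids, was at 177, 269 and 188 CPM and then at 26.4, 33.8 and 78.4 CPM (-2.19 ± 0.44). The ranges of the ages did not meet for any of these genes, although the 1-month libraries themselves differed several-fold in PLIN5 and PCK1. AQP7, the glycerol channel of adipocytes, was at 240, 361 and 342 CPM at 1 month and at 92.7, 69.0 and 129 CPM at 3 months (-1.70 ± 0.30). ACADVL, which opens mitochondrial oxidation of long-chain fatty acids, was at 219, 247 and 216 CPM and then at 104, 117 and 128 CPM (-0.97 ± 0.19). HILPDA, an inhibitor of the lipase ATGL, was at 46.3, 91.8 and 77.3 CPM at 1 month and at 17.0, 13.5 and 24.9 CPM at 3 months (-1.96 ± 0.34), and its gene overlaps FAM71F2, which was also lower in each 3-month library. Each of these 6 genes was called by DESeq2. When VAF6-1 replaced VAF3-3, only PCK1 and HILPDA of the 6 were below the range in all 3 libraries, at 29.8 and 19.1 CPM in VAF6-1. UCP3 (189 CPM) and AQP7 (285 CPM) were inside the 1-month range there, ACADVL was above it (274 CPM), and PLIN5 was below it by less than the margin (17.1 CPM).

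Leptin and PLIN4 were the adipocyte markers with this pattern. LEP, the hormone of fat stores (chromosome 18, 20106867 to 20124071), was at 63.2, 92.1 and 117 CPM at 1 month and at 24.3, 10.5 and 31.7 CPM at 3 months (log2FC -2.03 ± 0.43, DESeq2 adjusted p = 0.000796). PLIN4, a droplet coat protein whose gene (chromosome 2, 74318624 to 74331920, overlapping HDGFL2) is next to PLIN5 (74304613 to 74314314), was at 1487, 2379 and 2022 CPM at 1 month and at 407, 321 and 963 CPM at 3 months (-1.80 ± 0.47, DESeq2 adjusted p = 0.00436). The remaining 11 of the 13 adipocyte markers were not called by DESeq2, which called 1.01% of all genes lower. The summed level of the 13 markers was 13700, 23280 and 21090 CPM at 1 month, 7632 and 6736 CPM in VAF3-1 and VAF3-2, and 21760 CPM in VAF3-3. The sum was thus inside the 1-month range in VAF3-3 and below it in VAF3-1 and VAF3-2, and its part in the results for lipid genes was not tested. In VAF6-1 it was 23050 CPM, beside 13340 to 22560 CPM at 1 month, and LEP (32.3 CPM) was below the range by the margin there while PLIN4 (1296 CPM) was not.

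For the wider lists the calls were few, and are read beside the 2.64% of all genes that DESeq2 called higher and the 1.01% it called lower. Of 19 genes of fatty acid oxidation DESeq2 called 0 higher and 2 lower (ACADVL and the carnitine carrier SLC25A20), with a list median log2FC of -0.56, and of 15 genes of lipolysis and droplets 0 higher and 2 lower (PLIN4 and PLIN5), with a median of -0.75. CPT1A, the entry enzyme of mitochondrial oxidation, was at 89.7, 108 and 106 CPM at 1 month and at 68.6, 42.5 and 62.8 CPM at 3 months, and was not called. The lipases LIPE and PNPLA2 were not called, and VAF3-3 had 1412 CPM of LIPE, inside the range of 987 to 1547 CPM at 1 month.

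Of the 24 matrix genes measured, 3 were below the 1-month range in all 3 libraries, beside 0.831% of all genes, and 7 in VAF3-1 and VAF3-2 only, beside 2.74%. LOXL2, a lysyl oxidase that crosslinks collagen, was at 384, 330 and 397 CPM at 1 month and at 74.4, 67.1 and 167 CPM at 3 months (log2FC -1.85 ± 0.38). THBS1, thrombospondin 1, was at 58.3, 92.3 and 84.8 CPM and then at 21.8, 26.0 and 34.8 CPM (-1.51 ± 0.26). ADAMTS4, an aggrecan-cleaving protease, was at 28.2, 61.7 and 52.1 CPM at 1 month and at 4.35, 12.5 and 17.8 CPM at 3 months (-2.03 ± 0.53). Of the 22 matrix genes that DESeq2 tested it called 5 lower, these 3 with POSTN and ADAMTS5, and 0 higher, beside 1.01% and 2.64% of all genes. Under the other reading the 3 genes were still below the range in all 3 libraries, at 95.0, 27.8 and 13.9 CPM in VAF6-1. Fibrillar collagens were not among the calls: COL1A1 was at 24160, 4533 and 5199 CPM at 1 month and at 4530, 14840 and 6049 CPM at 3 months. The libraries of each age differed several-fold in COL1A1, and the ranges of the ages overlapped. COL5A2, another fibrillar collagen, was at 588 and 737 CPM in VAF3-1 and VAF3-2, beside 1553 to 2295 CPM at 1 month on the scaling of the other reading. Its level in VAF6-1 (1055 CPM) was below the range by less than the margin. Of the 24 matrix genes VAF3-1 was below the range in 18, VAF3-2 in 11 and VAF3-3 in 6, beside 8.77%, 10.1% and 5.15% of all genes.

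Nerve and receptor genes were also present. NGFR, the low-affinity neurotrophin receptor, was at 59.1, 56.8 and 106 CPM at 1 month and at 22.7, 12.5 and 19.99 CPM at 3 months, and GFRA3, a GDNF family co-receptor, at 41.6, 55.5 and 53.5 CPM and then at 19.2, 18.7 and 20.1 CPM (-1.38 ± 0.19). The Schwann cell markers S100B, SOX10, MBP and CDH19 were not called by DESeq2. SRD5A1, the steroid 5-alpha-reductase, was at 26.3, 30.3 and 32.4 CPM at 1 month and at 16.9, 10.1 and 7.11 CPM at 3 months (-1.38 ± 0.34, DESeq2 adjusted p = 0.0115).

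Of the 15 genes (0.101% of 14892) that edgeR called between 1 and 3 months in SAF, 7 were outside the 1-month range in all 3 VAF libraries on the same side. They were LRRN4CL, SDR16C5, SRD5A1, MEGF6 and DDC, lower at 3 months in both depots, and TMEM213 and LOC110258498, higher in both. Under the other reading the pattern held for 3 of the 7, LRRN4CL, SDR16C5 and MEGF6. In SAF the log2FC of LRRN4CL was -2.31 ± 0.26, that of SDR16C5, a retinol dehydrogenase, was -2.30 ± 0.25, and that of SRD5A1 was -1.59 ± 0.18 (adjusted p = 0.0295, 0.0295 and 0.0299, edgeR). The 7 genes were 7 of the 15 SAF calls and 7 of the 229 VAF genes with the all-library pattern. The depots came from the same pigs but from different libraries. Of the 127 genes lower in all 3 VAF libraries, 121 were measured in SAF, where 118 had a negative log2FC and 86 an unadjusted p below 0.05, beside 53.5% and 13.6% of all 14892 genes tested there. Of the 102 genes higher in all 3, 68 were measured in SAF, where 60 had a positive log2FC, beside 46.5% of all genes, and 37 an unadjusted p below 0.05. A test of whether the change with age differed between the depots called 0 of 15810 genes (0.0%, edgeR interaction term over 12 libraries), with 874 at an unadjusted p below 0.05, and 78 by DESeq2. The fit had no term for the pig and so took the libraries of a pig as independent, and without VAF3-3 it called 378 of 16389 genes.

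In VAF3-1 and VAF3-2 only, 17 of the 20 urothelial markers measured and 16 of the 18 smooth muscle markers were higher, beside 4.84% of the genes that passed the filter. The 10 genes farthest above the 1-month range were HSD17B2, UPK3A, KRT7, S100A2, NCCRP1, MUC1, DAPL1, PSCA, TSPAN1 and RHOV. UPK3A, a uroplakin of the plaques on the urothelial surface (chromosome 5, 4109985 to 4122272), was at 0.688, 0.646 and 0.650 CPM at 1 month, at 373 and 230 CPM in VAF3-1 and VAF3-2, and at 0.268 CPM in VAF3-3. HSD17B2, which inactivates estradiol and testosterone, was at 0.0625, 0.277 and 0.173 CPM at 1 month and at 1230, 404 and 0.537 CPM at 3 months. KRT7, a keratin of simple and urinary epithelia, was at 1.13, 0.830 and 1.08 CPM and then at 432, 275 and 1.56 CPM. In these 3 genes VAF3-3 was near the 1-month libraries. Of the 10 genes only KRT7 was above the 1-month range by the margin in VAF6-1 (6.17 CPM), and TSPAN1 was below it (0.424 CPM).

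Of these 20 urothelial markers, 12 passed the filter on low counts, which asks for a minimum count in at least 3 libraries. None of the other 8 had more than 5 counts in any library but VAF3-1 and VAF3-2. Over all 20, VAF3-1 was above the 1-month range in 20, VAF3-2 in 19 and VAF3-3 in 2 (UPK1B and KRT19), beside 9.97%, 9.01% and 5.24% of the genes that passed the filter. The summed level was 37.9, 144 and 59.2 CPM at 1 month and 4778, 2103 and 116 CPM at 3 months. VAF3-1 held more than VAF3-2, and VAF3-3 was inside the 1-month range, as was VAF6-1 with 78.9 CPM beside 36.9 to 139 CPM on its scaling. UPK1A, which did not pass the filter, had 0 counts in all 3 libraries at 1 month and 368, 118 and 0.134 CPM at 3 months. KRT5, the keratin of the basal layer, was at 1.53, 0.710 and 0 CPM at 3 months.

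Smooth muscle showed the same libraries. All of its 18 markers passed the filter, and the median log2FC of the list was 2.11 beside 0.02 for all genes. Their summed level was 1508, 2035 and 1048 CPM at 1 month and 12940, 11340 and 1015 CPM at 3 months, and VAF6-1 had 1536 CPM, inside the 1-month range. ACTG2, the gamma actin of visceral muscle, was at 21.2, 33.5 and 11.7 CPM at 1 month and at 1438, 1132 and 6.13 CPM at 3 months. DES, desmin, was at 6.31, 26.8 and 10.4 CPM and then at 827, 768 and 2.15 CPM, so VAF3-3 was the lowest of the 6 libraries in both. ACTA2 and TAGLN, which vessels and stromal cells also express, differed less, with 224 to 534 CPM of ACTA2 at 1 month and 1666, 1997 and 216 CPM at 3 months. DESeq2 called 8 of the 18 higher and 0 lower, beside 2.64% and 1.01% of all genes, and edgeR without VAF3-3 called 15 higher, beside 4.76%. The count of 15 is no independent evidence, because the library left out is the 3-month library whose smooth muscle sum was not raised. The heart and smooth muscle coactivator gene MYOCD was low throughout, with 1.47 CPM at most.

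**Figure D3:**
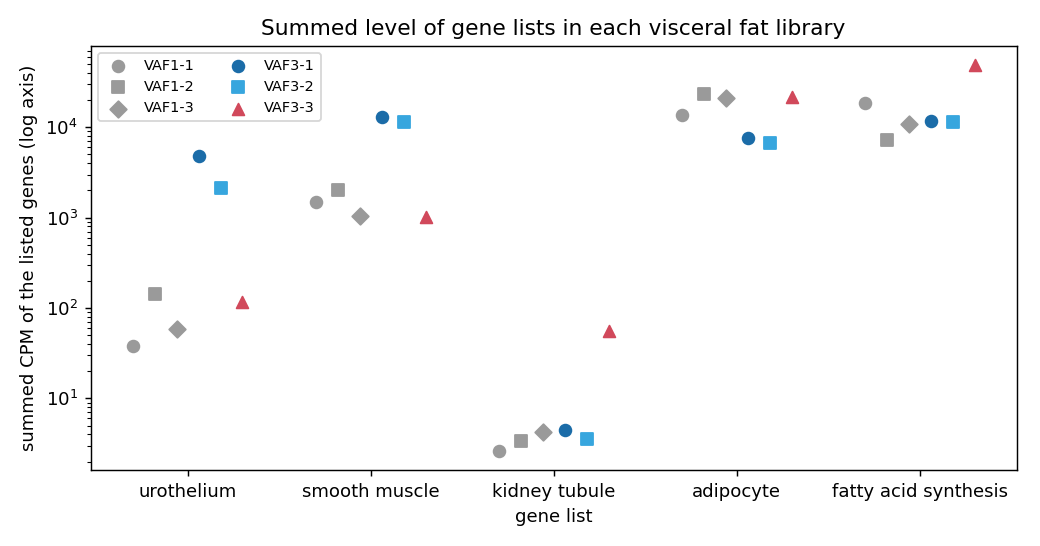
Summed CPM of the genes of 5 lists (x axis) in each of the 6 libraries (y axis, log scale). VAF3-1 and VAF3-2 stand above the rest in urothelium (4778 and 2103 CPM) and smooth muscle and below it in adipocyte genes, whereas VAF3-3 stands above the rest in kidney tubule genes (55.3 CPM) and in fatty acid synthesis genes (48570 CPM).

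Many smooth muscle genes are read by serum response factor through the CArG box, an A and T-rich element. It was found in 299 of the 19531 start windows (1.53%) and in 2 of the 18 smooth muscle markers, TAGLN and MYL9. The level of TAGLN was 371, 385 and 243 CPM at 1 month and 1363, 1790 and 172 CPM at 3 months, with VAF3-3 the lowest of all 6 libraries.

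Gene lists on male sexual development, hormone signalling and the Hippo pathway, which the study drew from its contrast of SAF with VAF at 3 months, also held members higher in VAF3-1 and VAF3-2. The labels of VAF3-1 and VAF3-2 do not conflict, but whether that contrast held VAF3-3 or VAF6-1 beside them is not settled. Since the lists were chosen on such samples they are no independent evidence of a direction. Of the 18 hormone signalling genes 13 were above the 1-month range in VAF3-1 and VAF3-2 only, as were 4 of 9 genes of sexual development and 5 of 11 of the Hippo pathway, beside 4.84% of all genes. GATA3, a transcription factor of urothelium among other tissues, was at 5.31, 7.15 and 4.03 CPM at 1 month and at 85.4, 39.6 and 5.68 CPM at 3 months. CDH1, E-cadherin, was at 6.44, 2.35 and 1.30 CPM and then at 504, 125 and 7.11 CPM. HOXA11, a homeobox gene of the urogenital tract, was at 3.12, 0 and 0.347 CPM at 1 month and at 15.4, 15.3 and 0.224 CPM at 3 months. VAF3-3 was within 1 CPM of the 1-month range in all 3. All 3 libraries were outside the range, above it, in 2 of the hormone signalling genes (FXYD2 and ATP1B1, subunits of the sodium pump or its regulators), in 1 Hippo gene (WWC1) and in 0 genes of sexual development, beside 0.668% of all genes. When VAF6-1 replaced VAF3-3, this held for WWC1 but not for FXYD2 or ATP1B1. The urothelial and smooth muscle sums given above moved with these lists, and their part was not tested.

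Genes lower in VAF3-1 and VAF3-2 only were partly adipocyte genes. The 5 farthest below the 1-month range were FBP2, HAP1, TRH, TNFAIP6 and DMRT2. FBP2, a fructose bisphosphatase best known from muscle, was at 23.3, 56.0 and 38.8 CPM at 1 month and at 1.02, 2.18 and 23.03 CPM at 3 months. TNFAIP6, a hyaluronan-binding protein of inflamed tissue, was at 71.2, 38.1 and 32.4 CPM and then at 7.74, 7.21 and 37.4 CPM. VAF3-3 was within 1 CPM of the 1-month range in both. With VAF6-1 in place of VAF3-3, TRH (0.484 CPM) and TNFAIP6 (20.8 CPM) were below the range by the margin in all 3 libraries, and the rest of the 5 were not. Of the 13 adipocyte markers 5 (PLIN1, CIDEC, FABP4, LIPE and GPD1) were below the range in VAF3-1 and VAF3-2 only, beside 2.74% of all genes. FABP4, the fatty acid chaperone of adipocytes, was at 5170, 8561 and 8944 CPM at 1 month and at 2310, 2638 and 5657 CPM at 3 months. ADIPOQ, adiponectin, was at 937, 2259 and 1709 CPM and then at 653, 455 and 2418 CPM, and PPARG, the master regulator of adipocytes, at 148, 213 and 212 CPM and then at 222, 131 and 240 CPM. Neither was called by DESeq2, and PPARG did not leave the 1-month range by the margin in any library.

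VAF3-3 was set apart by genes of fatty acid synthesis. Of the 16 listed, 12 were above the 1-month range in VAF3-3 only, beside 3.95% of all genes, and the summed level of the list was 18620, 7245 and 10840 CPM at 1 month, 11780 and 11480 CPM in VAF3-1 and VAF3-2, and 48570 CPM in VAF3-3. FASN, fatty acid synthase (chromosome 12, 922405 to 937560), was at 4665, 1853 and 2369 CPM at 1 month and at 5770, 4582 and 18100 CPM at 3 months (log2FC 1.68 ± 0.64, edgeR adjusted p = 0.494). ACLY, which makes cytosolic acetyl-CoA from citrate, was at 1042, 201 and 383 CPM and then at 808, 894 and 3538 CPM. ME1, the malic enzyme that supplies NADPH, was at 355, 214 and 323 CPM at 1 month and at 287, 289 and 1381 CPM at 3 months. VAF3-1 and VAF3-2 were inside or near the 1-month range in these genes, and DESeq2 called FADS1 higher and no other gene of the list. VAF6-1 was above the range in 13 of the 16, with a summed level of 73350 CPM and with 25220 CPM of FASN, so both libraries whose labels conflict were above the range. SREBF1, the transcription factor of this programme, was at 184, 157 and 149 CPM at 1 month and at 245, 241 and 397 CPM at 3 months, so all 3 libraries were higher, though only VAF3-3 passed the margin.

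**Figure D4:**
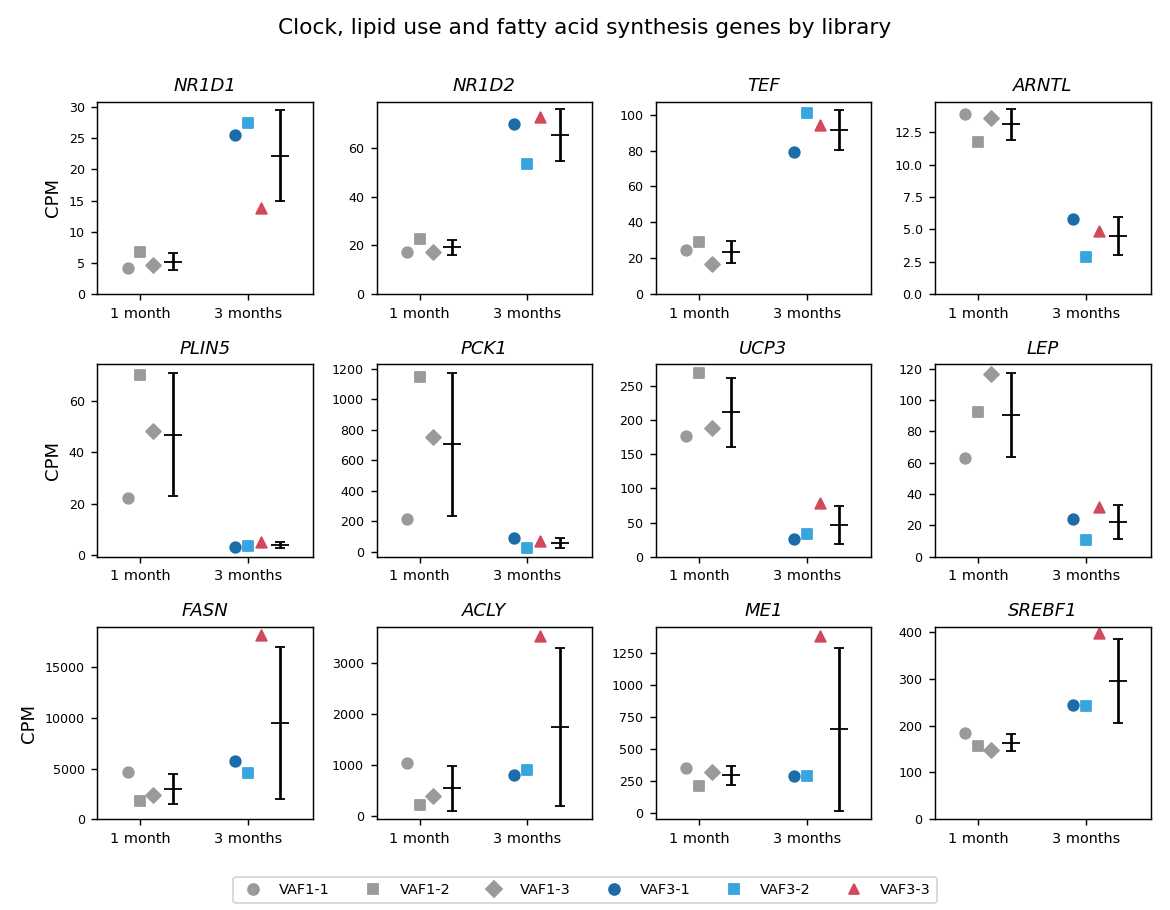
CPM (y axis) of 12 genes in the 3 libraries at 1 month and the 3 at 3 months (x axis), with the mean and SD of each age as a bar beside the points. NR1D1, NR1D2 and TEF are higher and ARNTL, PLIN5, PCK1, UCP3 and LEP lower in all 3 libraries at 3 months, whereas FASN, ACLY and ME1 are far higher in VAF3-3 (18100, 3538 and 1381 CPM) than in any other library.

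The 8 genes farthest above the 1-month range in VAF3-3 only were JCHAIN, HK2, DUSP4, PFKFB1, SLIT1, ME1, FASN and KLF9. HK2, the insulin-regulated hexokinase, was at 15.8, 14.0 and 23.4 CPM at 1 month and at 12.3, 3.93 and 123 CPM at 3 months. PFKFB1, a regulator of glycolysis, was at 9.31, 6.92 and 5.94 CPM and then at 9.61, 7.81 and 38.9 CPM. JCHAIN, the joining chain of IgA and IgM made by plasma cells, was at 4.19, 4.75 and 3.34 CPM at 1 month and at 4.07, 4.37 and 38.5 CPM at 3 months, while the summed level of the 11 lymphoid markers in the table was 27.8 to 49.8 CPM at 1 month and 31.2, 68.5 and 58.4 CPM at 3 months. LPL, the lipase that takes up fatty acids from lipoproteins, was at 1014, 2160 and 2282 CPM at 1 month and at 1162, 505 and 5566 CPM at 3 months. Among the 6 libraries only VAF3-3 passed the margin above the range in these genes, and VAF6-1 was above the range in 7 of the 8, all but SLIT1. DUSP4, a phosphatase of MAP kinases, was at 67.2, 84.5 and 63.9 CPM at 1 month and at 124, 116 and 355 CPM at 3 months. All 3 libraries were thus higher, and without VAF3-3 its log2FC was 0.725 (edgeR adjusted p = 0.0674). In SAF edgeR called it, with a log2FC of 2.34 (adjusted p = 0.00233). DESeq2 called DUSP4 (adjusted p = 0.0493), gave JCHAIN no adjusted p, and called none of the other 6 nor LPL.

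Kidney tubule genes were detected in VAF3-3. Of the 16 markers measured, 9 were above the 1-month range in VAF3-3 only, beside 3.95% of the genes that passed the filter. Only 4 of the 16 passed that filter themselves, and DESeq2 tested 3. The share of 3.95% is therefore not a matched background for the 9. The summed level of the 16 was 2.63, 3.37 and 4.203 CPM at 1 month and 4.46, 3.60 and 55.3 CPM at 3 months. SLC34A1, the phosphate transporter of the proximal tubule, had 0 counts in the other 5 libraries and 7.92 CPM in VAF3-3, and UMOD, uromodulin of the thick ascending limb, had 0 in those 5 and 3.35 CPM in VAF3-3. The endocytic receptor gene LRP2 was at 0.226 to 1.34 CPM in the other libraries and at 11.8 CPM in VAF3-3. Further defining markers were near 0 in VAF3-3 as well: SLC12A1 had 0 CPM, AQP2 0 CPM, KCNJ1 0.0447 CPM and CALB1 0.134 CPM. VAF6-1 had a sum of 6.78 CPM, with 0 CPM of SLC34A1 and of UMOD. The kidney genes moved with the fatty acid synthesis genes in this library, at a summed level far below theirs, and their part in that result was not tested.

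The 5 genes farthest below the 1-month range in VAF3-3 only were SLA-2, tRNA-Ser, RN5-8S, SMPDL3B and FAM178B. SLA-2, a class I histocompatibility gene, was at 613, 698 and 614 CPM at 1 month and at 808, 1084 and 74.2 CPM at 3 months. In VAF6-1 it was at 819 CPM, above the 1-month range by less than the margin, so its low level was seen in VAF3-3 only. It overlaps other class I genes in the annotation and its alleles are near-identical in places, so how reads were divided among them is uncertain. The rows tRNA-Ser and RN5-8S hold short structural RNAs of multicopy genes and are uncertain in the same way. Of the 5, tRNA-Ser and SMPDL3B were below the range by the margin in VAF6-1 too, at 15.3 and 2.12 CPM. Immediate early genes were also low in VAF3-3, with 13 of 18 below the 1-month range there, against 9 in VAF3-1 and 2 in VAF3-2, beside 5.15%, 8.77% and 10.1% of all genes. VAF6-1 was below the range in 12. FOS was at 107, 249 and 128 CPM at 1 month and at 82.3, 172 and 35.9 CPM at 3 months, and DESeq2 called 2 of the 18 lower (EGR2 and NR4A3) and 0 higher, beside 1.01% and 2.64% of all genes.

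Other cell types gave few calls. Of the 25 cell cycle genes DESeq2 called 0 in either direction, as it did of 18 interferon genes, 10 endothelial, 11 lymphoid and 11 macrophage markers, of which edgeR had 1, 0, 1, 0 and 1 at an unadjusted p below 0.05, beside 9.07% of all genes. By library, VAF3-1 was below the 1-month range in 16 cell cycle and 13 interferon genes, beside 8.77% of all genes. VAF3-2 was below it in 2 and 0, beside 10.1%, and VAF3-3 in 0 and 4, beside 5.15%. VAF6-1 was below it in 20 and 3. HBB, the beta globin gene, was at 528, 514 and 526 CPM at 1 month and at 230, 362 and 204 CPM at 3 months, and ALAS2, the erythroid heme enzyme, at 14.3, 24.9 and 22.1 CPM and then at 3.56, 10.3 and 4.83 CPM. DESeq2 called both lower and none higher among the 3 erythroid markers it tested, beside 1.01% and 2.64% of all genes. In VAF6-1 they were below the 1-month range by less than the margin (383 and 9.86 CPM). The erythroid marker AHSP had the opposite direction. On the scaling of the other reading it was at 0.365, 0.671 and 0.339 CPM at 1 month. In VAF3-1, VAF3-2 and VAF6-1 it was at 1.09, 1.39 and 1.82 CPM. Among the adrenal cortex markers CYP17A1 was at 0.277 CPM or less and CYP11A1 at 0.688 CPM or less in each library. CYP21A2 and STAR reached more. On the scaling of the other reading CYP21A2 was at 3.77 CPM in VAF1-1 and 3.41 CPM in VAF3-2, and STAR at 3.72 CPM in VAF1-3. DESeq2 tested 4 of the adrenal markers and called 0 in either direction. Of 14 genes of thermogenic fat DESeq2 tested 11 and called 1 lower (UCP3) and 0 higher, beside 1.01% and 2.64% of all genes. The median log2FC of this list was -0.03, beside 0.02 over all genes tested.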

How the data were processed

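The study trimmed the paired Illumina reads with fastp and, per the submitters' processing notes, aligned them with HISAT2 2.0.4 to Sscrofa11.1. The authors counted reads per gene with HTSeq and deposited 1 table of raw counts for 29884 gene rows and 18 libraries, and only these counts were used. No column was left unmapped, and 0 columns were left out. Whether counting used the strand is not given in the sources used here. The counts of the 6 VAF libraries were filtered (filterByExpr), scaled by TMM and tested with the quasi-likelihood test of edgeR 4.0.16 (R 4.3.3), with Benjamini-Hochberg adjustment. DESeq2 1.42.0, limma 3.58.1 (voom with sample quality weights) and a fit over all 18 libraries were alternatives. CPM values are counts per 1000000 after TMM, and a change was called at an adjusted p below 0.05 and above 1.5-fold. The scripts were tested on simulated data.

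A gene was named if its symbol did not start with LOC and it was among the 15 with the smallest p of each all-library pattern, among the 10, 8, 5 and 5 farthest outside the 1-month range for the partial patterns with a mean of at least 5 CPM, or in a gene list. LOC110258498, MEGF6 and DDC were named after their values were seen, as were the calls of single alternatives. The members, lists and tests were chosen with earlier results of these data known. Gene positions and sequences are from the RefSeq annotation of Sscrofa11.1, whose symbols matched 29862 of the gene rows. With 3 libraries in a group, p-values rest on the spread between libraries. Differences between pigs, between pieces of tissue and in the labels cannot be told apart in it. Replicate numbers did not mark shared pigs between the ages (correlation of deviations between same-numbered libraries 0.0334, -0.111 and 0.198), so no block was used. Some genes and sequences are not reported here.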

Additional observations from a re-analysis of the deposited data

How the results depend on the processing

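The edgeR count of called genes was 0 with all 6 libraries and stayed 0 with DESeq2 size factors, no filter, robust fitting, VAF6-1 in place of VAF3-3 and no limit on log2FC. It was 622 with DESeq2, 169 with all 18 libraries in one fit and 20 with limma voom with quality weights, and from 0 to 1013 when each library was left out, the 1013 without VAF3-3. Leaving it out also lowered the spread, with a biological coefficient of variation of 0.393 with it and 0.316 without it, and its quality weight was 0.244 against 0.649 to 2.16 for the others. Genes at an unadjusted p below 0.05 numbered 1385, then 2092 with DESeq2, 2985 with limma voom and from 871 (without VAF3-1) to 3775 (without VAF3-3) with a library left out. Genes whose change differed between VAF and SAF numbered 0, then 78 with DESeq2 and from 0 to 378 (without VAF3-3).

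With the replicate block 1 gene was called, SULT1E1, an estrogen sulfotransferase named after its value was seen. The numbers do not pair the pigs, and not every library correlated best with its own number.

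With no margin, the counts of all 3 above, all 3 below, VAF3-1 and VAF3-2 only above and below, and VAF3-3 only above and below were 854, 1039, 2344, 2161, 2729 and 2621, and with a margin of 1 they were 44, 47, 431, 144, 207 and 137. Leaving out a 1-month library gave 157 to 188, 186 to 269, 821 to 1059, 486 to 829, 692 to 941 and 602 to 776, in the same order. A narrower range takes in more genes by construction. No filter, another pseudocount, no TMM and VAF6-1 in place of VAF3-3 moved none of the 6 counts by over 1.5 times.

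Of 804 alternative log2FC values of the 58 named genes, 12 changed sign, all in genes of the VAF3-3 patterns. HK2 was -0.545 with limma voom and ran from -1.15 (without VAF3-3) to 1.93 (without VAF3-2) with a library left out, KLF9 was -0.151 with limma voom and ran from -0.503 to 1.93 in the same way, and ME1 was -0.0585 without VAF3-3. SLA-2 was -0.539 with the replicate block, -0.539 without VAF3-2, -0.142 without VAF3-1, -0.0154 without VAF1-1, -0.00983 without VAF1-3 and 0.549 without VAF3-3. SMPDL3B was -0.249 with the block and ran from -0.829 (without VAF3-1) to 0.807 (without VAF3-3).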

Other observations

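Genes of cholesterol synthesis and uptake had no call by edgeR on all 6 libraries or by DESeq2 among the 20 tested. An unadjusted edgeR p below 0.05 was seen in 6 of them, all with a positive log2FC, beside 9.07% of all genes in either direction. Above the 1-month range by the margin were 5 in VAF3-3 only, beside 3.95% of all genes, and 0 in all 3 libraries, beside 0.668%. VAF6-1 was above it in 9. The median log2FC of the list was 0.49, beside 0.02 over all genes. SC5D, a late enzyme of the pathway, was at 44.0, 35.9 and 46.7 CPM at 1 month and at 62.7, 66.8 and 135 CPM at 3 months, so the ages did not overlap and VAF3-3 was the highest.

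The growth hormone and IGF genes had 0 calls by DESeq2 among 12 tested and 0 by edgeR, with 0 at an unadjusted edgeR p below 0.05, beside 9.07% of all genes. IGF1 was at 126, 105 and 89.1 CPM at 1 month and at 50.6, 93.2 and 117 CPM at 3 months.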
